A study of Mus musculus with 18 samples.

Results

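Oxygen sensing and hypoxia-inducible factor (HIF) target genes were followed across Fabp4 genotypes in mouse bone marrow cells. The group held 37 genes: the HIF subunits, the prolyl hydroxylases and other regulators that act on them, and HIF targets outside glycolysis. These genes were listed with earlier results of these data known, so their shares set beside those of all genes are descriptions. The group was matched by gene symbol to the 22608 genes found in either expression table of the series. All 37 genes matched among the 22017 of the in vitro table and 30 among the 13195 of the bone marrow table.

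RNA had been sequenced in bulk from cells of 3 Fabp4 genotypes: wild type (WT), heterozygous knockout (HET) and homozygous knockout (KO). Fabp4 encodes a carrier of fatty acids known from fat cells and macrophages. In the in vitro set, whose label gives a sort from vitro bone marrow, each genotype had 3 libraries. In the bone marrow set, sorted from marrow directly, there were 3 WT, 2 HET and 3 KO libraries, since HET replicate 2 was not analysed here. The labels name no strain, sex, age, sorted population, culture condition, oxygen level or further treatment, and do not say how the Fabp4 alleles were made. The design names 3 mice for each genotype of a set but ties no library to a mouse, so p-values measure the spread between libraries, which may be technical.

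The HIF alpha subunits are made continuously and destroyed when oxygen is present. Prolyl hydroxylases of the Egln family use oxygen and 2-oxoglutarate to hydroxylate them, the Vhl protein recognises the hydroxylated form and directs it to the proteasome, and Hif1an hydroxylates an asparagine that blocks coactivator binding. When oxygen is low the alpha subunit pairs with Arnt, binds a short element in DNA and raises a set of genes that includes Egln1 and Egln3 themselves, so the pathway holds its own brake. Bone marrow is a low-oxygen tissue, and HIF signalling is known there from blood stem cells and from myeloid cells.

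Promoters of members are shown because the element that HIF binds has a fixed core, ACGTG or GCGTG. The lines below give the 250 bases before the start site in RefSeq (GRCm38.p6, 5′ to 3′ on the gene's strand) for the 3 Egln genes, for 3 members that fell in KO cells and carry the core (Bnip3, Fam162a, Stc2), and for Apln, which fell and carries no core. Capitals mark each match to the core on either strand, so that CACGT and CACGC are the same letters read on the other strand.

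Egln1, chr8:124949255-124949504, minus strand: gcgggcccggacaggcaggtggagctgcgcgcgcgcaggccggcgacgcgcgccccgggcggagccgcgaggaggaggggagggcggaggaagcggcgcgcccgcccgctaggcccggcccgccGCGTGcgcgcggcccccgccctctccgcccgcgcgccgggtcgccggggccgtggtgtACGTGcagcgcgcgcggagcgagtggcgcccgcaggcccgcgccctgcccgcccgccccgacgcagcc
Egln3, chr12:54203875-54204124, minus strand: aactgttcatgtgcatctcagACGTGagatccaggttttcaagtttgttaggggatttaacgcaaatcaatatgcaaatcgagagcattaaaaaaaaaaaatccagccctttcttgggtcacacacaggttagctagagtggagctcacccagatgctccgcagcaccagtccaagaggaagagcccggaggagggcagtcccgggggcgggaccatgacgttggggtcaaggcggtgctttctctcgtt
Egln2, chr7:27166803-27167052, minus strand: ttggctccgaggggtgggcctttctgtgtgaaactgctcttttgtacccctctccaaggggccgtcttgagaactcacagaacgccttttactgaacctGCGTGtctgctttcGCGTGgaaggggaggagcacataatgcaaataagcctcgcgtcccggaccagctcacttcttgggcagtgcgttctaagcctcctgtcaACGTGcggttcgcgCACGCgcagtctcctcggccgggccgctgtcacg
Bnip3, chr7:138909507-138909756, minus strand: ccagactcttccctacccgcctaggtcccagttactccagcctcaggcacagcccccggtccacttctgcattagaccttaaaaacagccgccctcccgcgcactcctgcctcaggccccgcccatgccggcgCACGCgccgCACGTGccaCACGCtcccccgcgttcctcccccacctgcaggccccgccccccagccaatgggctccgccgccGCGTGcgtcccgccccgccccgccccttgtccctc
Fam162a, chr16:36071562-36071811, minus strand: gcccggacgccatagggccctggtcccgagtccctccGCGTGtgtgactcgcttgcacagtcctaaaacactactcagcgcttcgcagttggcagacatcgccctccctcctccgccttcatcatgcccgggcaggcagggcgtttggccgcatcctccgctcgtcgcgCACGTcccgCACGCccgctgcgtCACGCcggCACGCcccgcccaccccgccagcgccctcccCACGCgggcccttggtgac
Stc2, chr11:31370062-31370311, minus strand: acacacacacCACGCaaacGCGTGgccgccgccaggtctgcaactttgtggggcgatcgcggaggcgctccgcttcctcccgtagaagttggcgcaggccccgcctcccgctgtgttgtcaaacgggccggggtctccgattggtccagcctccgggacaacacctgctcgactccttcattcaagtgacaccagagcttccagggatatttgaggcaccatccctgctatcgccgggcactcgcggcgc
Apln, chrX:48034854-48035103, minus strand: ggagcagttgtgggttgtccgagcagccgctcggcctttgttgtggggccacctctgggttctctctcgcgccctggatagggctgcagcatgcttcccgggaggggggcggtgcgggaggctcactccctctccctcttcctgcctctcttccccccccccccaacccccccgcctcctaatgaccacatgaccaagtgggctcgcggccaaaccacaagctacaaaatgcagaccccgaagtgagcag

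In Bnip3 the core occurs 5 times in these 250 bases, and its copies at 108 and 107 bases before the start overlap on opposite strands in CACGTG, the letters of an E-box. Fam162a held 6 copies, Egln1 held 2, at 126 and 68 bases before the start, and Egln3 held 1, at 229 bases. Egln2, which did not fall, held 4 before the start shown. Of the 37 members, 28 had a promoter in the RefSeq table, and 25 of these (89.29%) held the core on either strand in the 300 bases from 250 before to 50 after a start. The core was present in 46.73% of all 27025 genes with a promoter and in 68.07% of the 8746 genes with a promoter that were tested in vitro. ACGTG alone was found in 19 of 28 members (67.86%), against 30.11% of those tested genes. The core was held by 12 of 14 members that fell in KO cells and by 13 of 14 tested members that were not called. Among members, 6 of 28 held CACGTG (21.43%, against 12.01% of tested genes). These matches are letters in a window and were not tested as sites.

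Values are FPKM, fragments scaled by transcript length and by library size, as deposited. Estimated depth was 30.5 to 36.7 M fragments per in vitro library, and 16779 to 18029 genes were above 0. Of the 37 members, 35 passed the filter of at least 1 FPKM in at least 3 in vitro libraries and were tested, and 31 stood at 5 FPKM or more in all 9 libraries. Fabp4 itself was at 0, 0.0326 and 0.330 FPKM in WT, at 0, 0.0676 and 0 in HET and at 0 in the 3 KO libraries, too low to check the genotype labels, and its levels in bone marrow were not analysed here. Markers shared by blood cells were high (summed FPKM of 8 genes, 964 to 1158) and markers of stromal and fat cells summed to at most 2.51, with 7 of their 8 genes under 1 FPKM in every library.

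In KO cells in vitro, 18 of the 35 tested members fell and none rose. Over all 10877 genes tested, 1.63% were called lower and 1.36% higher, by limma with Benjamini-Hochberg adjusted p under 0.05. The falls took in sensors and brakes of the pathway (Egln1, Egln3, Vhl), mitophagy and mitochondrial genes (Bnip3, Bnip3l, Higd1a, Fam162a, Ak4), collagen hydroxylases (P4ha1, P4ha2, Plod2), secreted factors (Apln, Stc2), oxygen-dependent chromatin and RNA enzymes (Kdm4b, Jmjd6) and Mxi1, Ndrg1 and Ankrd37. The median log2 change of the 35 members was -0.63, beside 0.04 for all genes, and 28 of 35 changes were negative. In 22 of 35 members every KO library lay below every WT library, a pattern seen in 9.09% of all tested genes, and it held for all 18 that were called. Without KO 1 or KO 3 the counts over all genes were far lower too, at 43 and 40 lower and 28 and 26 higher, and 6 members were called in each case. For 12 of the 18, leaving out 1 library ended the call, and these libraries are named with each gene. Egln3, Vhl, Kdm4b, Jmjd6, Bnip3l, Fam162a, P4ha1, Plod2, Mxi1 and Ankrd37 were also uncalled once low genes were kept in the test (adjusted p of 0.0513 to 0.0999 by limma). Rescaling to TPM ended those of Egln3, Vhl, Plod2 and Ankrd37 (0.0516 to 0.0548), and quantile normalization those of Egln3 and Ankrd37 (0.0632 and 0.0627). Egln1, Higd1a, Ak4, P4ha2, Apln and Stc2 stayed called in all 18 alternatives.

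**Figure D1:**
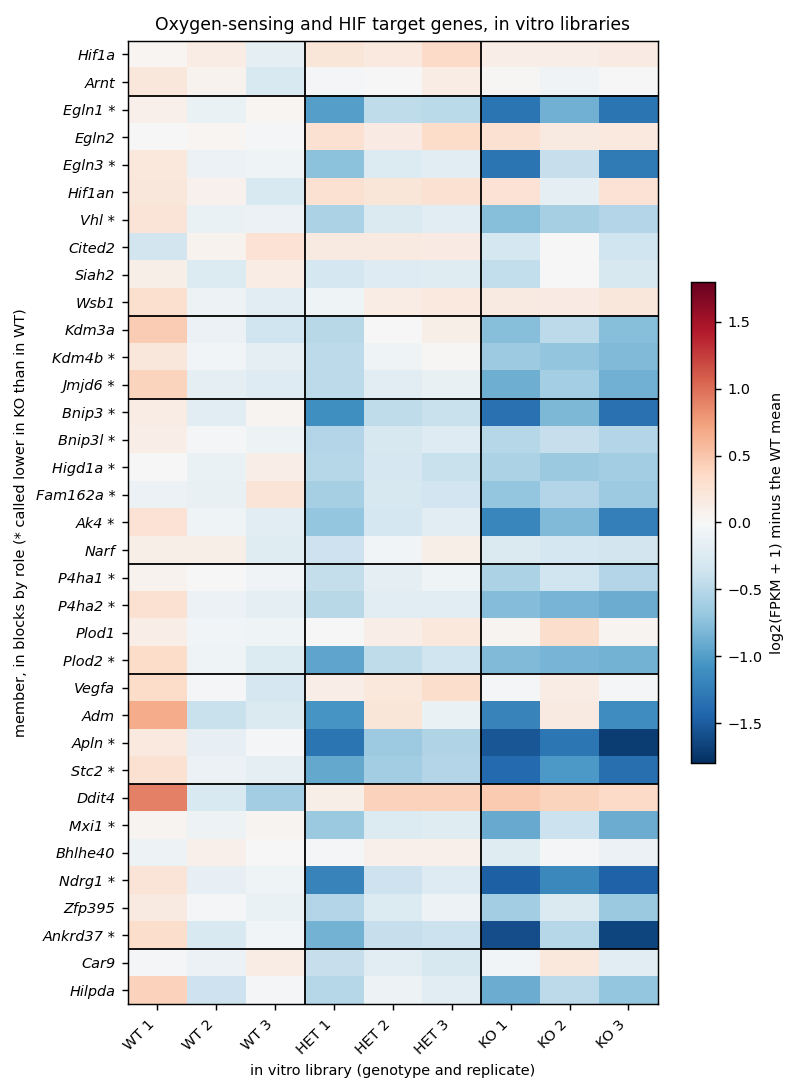
Each cell gives log2(FPKM + 1) of a member (rows, in blocks by role) in an in vitro library (columns) minus the mean of the 3 WT libraries, blue for lower and red for higher, with an asterisk for the 18 members called lower in KO. Most rows turn blue in the KO columns, HET 1 is bluer than HET 2 and HET 3, and KO 2 is paler than KO 1 and KO 3.

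The HIF subunits themselves did not pass the test. Hif1a, the oxygen-labile subunit, stood at 34.8, 37.7 and 30.2 FPKM in WT, at 39.9, 38.7 and 43.7 in HET and at 37.3, 37.3 and 37.9 in KO. The KO libraries lay within the WT range except for KO 3, just above its top. The log2 change of KO against WT was 0.13 (95% CI -0.06 to 0.32, adjusted p = 0.429 by limma), an interval that excludes a fall of the size seen in the called members. Arnt, the stable partner, changed by -0.02 (95% CI -0.27 to 0.23). Epas1, which encodes the other main alpha subunit, was at 0.16 to 0.32 FPKM across the 9 libraries and was not tested.

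Among the prolyl hydroxylases, Egln1 and Egln3 fell and Egln2 did not. Egln1, which encodes the main HIF prolyl hydroxylase in most cells, was at 67.1, 58.0 and 64.5 FPKM in WT, at 31.3, 45.9 and 44.9 in HET and at 24.7, 34.2 and 24.7 in KO. Neither the HET nor the KO libraries reached the lowest WT value. Its log2 change in KO was -1.17 (95% CI -1.50 to -0.83, adjusted p = 0.00262 by limma). Egln3, the hydroxylase most strongly induced by hypoxia in many cells, was the most abundant of the family, at 298, 242 and 248 FPKM in WT, 156, 221 and 226 in HET and 104, 196 and 108 in KO. KO 2 stood apart from the other KO libraries, still below WT, and the change was -1.001 (95% CI -1.51 to -0.49, adjusted p = 0.0467). The Egln3 call was lost in 11 of 18 alternatives, among them without WT 1, WT 2, WT 3, HET 2, HET 3, KO 1 or KO 3, with adjusted p of 0.0634 to 0.193 for these libraries. Egln2, the family member not known as a HIF target, was at 15.9, 16.4 and 15.4 FPKM in WT, 19.4, 17.7 and 20.2 in HET and 19.5, 17.9 and 18.2 in KO. All KO and HET libraries lay above WT, but the change of 0.20 was not called (adjusted p = 0.174).

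Taken within each library, FPKM of Egln1 was 3.54 to 4.21 times that of Egln2 in WT, 1.61 to 2.59 times in HET and 1.26 to 1.91 times in KO, so that WT overlapped neither of the other genotypes. Egln3 over Egln1 moved less, at 3.85 to 4.44 in WT, 4.82 to 5.05 in HET and 4.24 to 5.74 in KO. HET lay above WT, while KO overlapped it. These ratios do not depend on the scaling of a library.

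Vhl, the recognition subunit of the ubiquitin ligase that removes HIF alpha, was at 17.5, 13.5 and 13.6 FPKM in WT, 9.61, 12.2 and 12.8 in HET and 8.25, 9.47 and 9.95 in KO. Its KO values lay below all WT values, with a log2 change of -0.63 (95% CI -0.91 to -0.35, adjusted p = 0.0246 by limma). The call was lost without WT 2, KO 1 or KO 3 (adjusted p of 0.0511, 0.119 and 0.0754). The other 4 regulators were not called in KO: Hif1an, the asparaginyl hydroxylase, changed by 0.12 (95% CI -0.20 to 0.44), Cited2, which competes with HIF for its coactivator, by -0.23 (-0.52 to 0.07), Siah2, a ubiquitin ligase that acts on the prolyl hydroxylases, by -0.24 (-0.53 to 0.04) and Wsb1, a ubiquitin ligase adaptor, by 0.17 (-0.07 to 0.42). Of the 8 sensors and regulators, 3 fell.

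**Figure D2:**
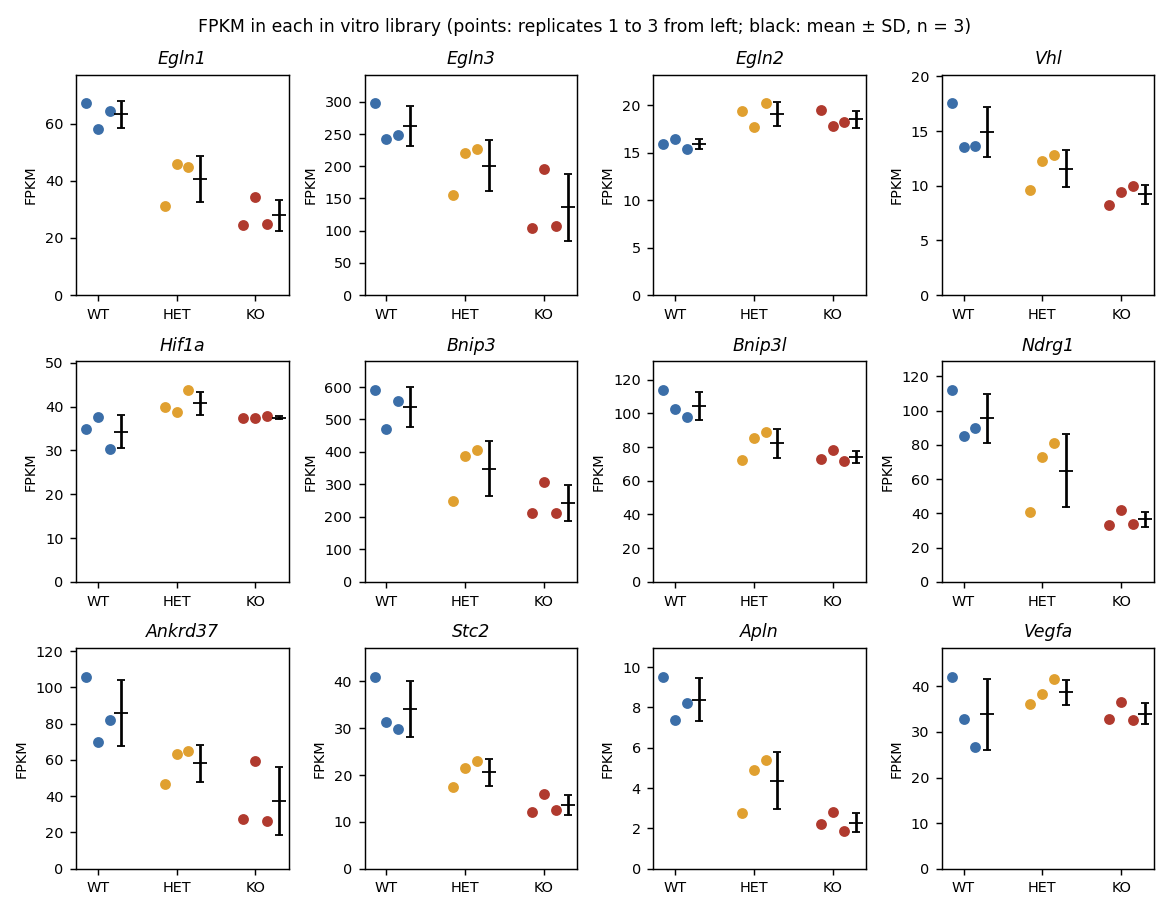
FPKM (y axis, from 0) of 12 members in each in vitro library, with replicates 1 to 3 from left to right within a genotype and the mean ± SD in black (n = 3). In Egln1, Egln3, Vhl, Bnip3, Bnip3l, Ndrg1, Ankrd37, Apln and Stc2 every KO library lies below every WT library. Of these, only Stc2 also has every KO library below every HET library. Hif1a and Vegfa overlap between WT and KO, and Egln2 lies slightly higher in HET and KO.

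Of the 3 enzymes that use oxygen to modify chromatin or RNA-binding proteins, Kdm4b and Jmjd6 fell. Kdm4b, a histone H3 lysine 9 demethylase, was at 13.3, 10.99 and 10.03 FPKM in WT, 7.96, 10.7 and 11.6 in HET and 6.89, 6.54 and 6.11 in KO, where all 3 libraries lay below every HET and WT library. Its log2 change in KO was -0.72 (95% CI -1.01 to -0.43, adjusted p = 0.0176 by limma), lost without WT 2, KO 1 or KO 3 (0.0531, 0.0616 and 0.0934). Jmjd6, a lysyl hydroxylase of splicing proteins, was at 63.2, 41.9 and 40.3 FPKM in WT and 25.5, 30.7 and 25.6 in KO. The change was -0.78 (95% CI -1.12 to -0.44, adjusted p = 0.0231), lost without KO 1 or KO 3 (0.106 and 0.112) and with only KO and WT in the fit (0.057). Kdm3a, another lysine 9 demethylase, was at 42.6, 28.5 and 23.8 FPKM in WT and 17.7, 21.8 and 17.6 in KO. These groups did not overlap, yet WT 1 stood well above the other WT libraries and the change of -0.67 was not called (adjusted p = 0.0964).

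Of the 6 members placed with mitochondria and mitophagy, 5 fell. Bnip3, a receptor that marks mitochondria for autophagy, was among the most abundant members, at 590.3, 471 and 556 FPKM in WT, 250.3, 389 and 406 in HET and 212, 307 and 212 in KO. Every HET and KO library lay below WT, and the KO log2 change was -1.16 (95% CI -1.58 to -0.74, adjusted p = 0.0105 by limma), lost without WT 3, KO 1 or KO 3 (0.0628, 0.0629 and 0.0626). Its paralog Bnip3l was at 114, 102 and 97.6 FPKM in WT and 72.8, 78.3 and 71.8 in KO. Bnip3l fell by 0.49 on the log2 scale (95% CI -0.68 to -0.29, adjusted p = 0.0176), a call lost without WT 2, KO 1 or KO 3 (0.0555, 0.0847 and 0.0949). Bnip3 was 4.60 to 5.70 times as high as Bnip3l in WT and 2.91 to 3.92 times in KO, in FPKM within a library.

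Higd1a, a small inner-membrane protein of the respiratory chain, was at 118, 109 and 128 FPKM in WT, 82.4, 95.9 and 88.9 in HET and 79.2, 74.1 and 76.1 in KO. The 3 genotypes formed separate ranges, and its KO change was -0.62 (95% CI -0.80 to -0.44, adjusted p = 0.00262 by limma). Fam162a, a mitochondrial protein linked to hypoxic cell death, was at 516, 503 and 649 FPKM in WT, 365, 453 and 436 in HET and 341, 384 and 349.9 in KO, a change of -0.63 (adjusted p = 0.0133). Leaving out KO 1 or KO 3 ended that call (0.0716 and 0.072). Ak4, a mitochondrial adenylate kinase, was at 28.9, 22.5 and 20.8 FPKM in WT, 14.3, 19.0 and 20.7 in HET and 10.04, 13.4 and 9.61 in KO, with no overlap between KO and either other genotype. The Ak4 change of -1.06 (95% CI -1.41 to -0.71) had an adjusted p of 0.00628 by limma. Narf, listed with this group although its protein is best known for binding prelamin A, changed by -0.30 and was not called (adjusted p = 0.199).

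Of the 4 collagen-modifying hydroxylases, 3 fell and Plod1 was not called. P4ha1 and P4ha2 encode the catalytic subunits of collagen prolyl hydroxylase, and Plod1 and Plod2 encode lysyl hydroxylases. P4ha2 was at 12.7, 9.43 and 9.01 FPKM in WT, 6.98, 8.73 and 8.87 in HET and 5.53, 5.28 and 5.05 in KO, again with KO below every other library, and its log2 change was -0.84 (95% CI -1.12 to -0.56, adjusted p = 0.00641 by limma). The more abundant P4ha1 was at 78.7, 76.3 and 72.0 FPKM in WT and 50.6, 58.6 and 52.3 in KO, a smaller change of -0.49 (adjusted p = 0.0231), lost without WT 2, KO 1 or KO 3 (0.0798, 0.114 and 0.113). Plod2 was at 13.0, 9.53 and 8.39 FPKM in WT, 4.77, 7.11 and 7.68 in HET and 5.43, 5.26 and 5.16 in KO, and changed by -0.83 (95% CI -1.19 to -0.46, adjusted p = 0.0239). That call was lost without WT 2, KO 1 or KO 3 (0.0656, 0.086 and 0.109). Plod1 was at 17.97 to 20.8 FPKM in WT and 19.7 to 23.8 in KO and was not called (0.13, 95% CI -0.08 to 0.34). Plod2 over Plod1 went from 0.467 to 0.624 in WT to 0.220 to 0.276 in KO, in FPKM within a library.

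The largest fall and the smallest p-value among the members were in secreted factors. Apln, the precursor of the peptide apelin, was at 9.51, 7.40 and 8.21 FPKM in WT, 2.76, 4.91 and 5.42 in HET and 2.22, 2.79 and 1.85 in KO. It had the largest log2 change of the 35 tested members, -1.52 (95% CI -1.92 to -1.11, adjusted p = 0.0018 by limma), and no member had a smaller adjusted p than Stc2. Stc2, a secreted glycoprotein of the stanniocalcin family, was at 40.9, 31.4 and 29.8 FPKM in WT, 17.4, 21.5 and 23.0 in HET and 12.2, 16.0 and 12.5 in KO, so that the 3 genotypes did not overlap. Its change was -1.26 (95% CI -1.57 to -0.95, adjusted p = 0.00103).

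Vegfa, the growth factor for blood vessels and the best known HIF target, did not follow them. It was at 42.1, 32.8 and 26.7 FPKM in WT, 36.2, 38.3 and 41.6 in HET and 32.8, 36.6 and 32.7 in KO, and its change of 0.03 had a 95% CI of -0.26 to 0.32 (adjusted p = 0.929 by limma). Adm, which encodes adrenomedullin, varied within genotypes: 5.83, 2.28 and 2.59 FPKM in WT, 1.07, 4.05 and 2.97 in HET and 0.876, 3.82 and 0.991 in KO. KO 2 lay inside the WT range, and the Adm change of -0.72 (95% CI -1.70 to 0.26) was not called. Stc1, the paralog of Stc2, reached at most 0.21 FPKM and was not tested.

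Among the members that act in growth control, transcription and stress, 3 of 6 fell. Ndrg1, a stress-induced gene known as a marker of hypoxia, was at 112, 85.3 and 89.6 FPKM in WT, 40.8, 72.8 and 81.0 in HET and 33.5, 41.8 and 34.1 in KO, with KO below every WT library and a change of -1.36 (95% CI -1.84 to -0.89, adjusted p = 0.0105 by limma). It was lost without WT 3, KO 1 or KO 3 (0.053, 0.0706 and 0.0667). Mxi1, an antagonist of Myc, was at 26.8, 24.1 and 26.8 FPKM in WT, 15.9, 21.6 and 22.0 in HET and 13.3, 19.5 and 13.4 in KO, a change of -0.73 (adjusted p = 0.0256). Without WT 2, WT 3, KO 1 or KO 3 the Mxi1 call was lost (0.0636, 0.0675, 0.119 and 0.121). Ankrd37, a small ankyrin-repeat protein, was at 106, 69.8 and 82.0 FPKM in WT, 46.5, 63.3 and 64.7 in HET and 27.3, 59.2 and 26.2 in KO. KO 2 stood far above the other KO libraries and below WT, and the change of -1.25 (95% CI -1.89 to -0.61) was close to the threshold (adjusted p = 0.0497). Of 18 alternatives, 14 ended the Ankrd37 call, including the omission of each library except HET 1 and KO 2 (0.0527 to 0.212), while without KO 2 its adjusted p was 0.00175.

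Ddit4, which restrains growth signalling through mTOR, was at 153, 67.3 and 52.5 FPKM in WT, 88.1, 109 and 109 in HET and 113, 108 and 103 in KO. WT 1 lay above and the other WT libraries below all HET and KO libraries, and the change of 0.40 was not called (95% CI -0.29 to 1.09). Without WT 1 it was called higher in KO (0.85, adjusted p = 0.00567 by limma). Zfp395, a transcription factor gene, was at 16.9, 14.6 and 13.8 FPKM in WT and 9.39, 12.4 and 9.11 in KO. Its groups did not overlap and it missed the threshold (-0.52, adjusted p = 0.065), which it passed without KO 2 (0.0264) or HET 1 (0.0499). Bhlhe40, a repressor that also acts in the circadian clock, changed by -0.12 (95% CI -0.29 to 0.05).

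Neither of the acid-base and lipid members was called in KO. Car9, a membrane carbonic anhydrase, was at 12.0, 11.3 and 13.5 FPKM in WT, 8.90, 10.6 and 9.78 in HET and 11.8, 14.1 and 10.5 in KO, so its lowest values were in HET. Hilpda, which blocks fat breakdown at the lipid droplet, was at 26.6, 15.03 and 19.3 FPKM in WT and 10.2, 14.1 and 11.9 in KO. Its change of -0.69 (95% CI -1.08 to -0.29) missed the threshold (adjusted p = 0.0677 by limma) and passed it without WT 2 (0.0387).

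**Figure D3:**
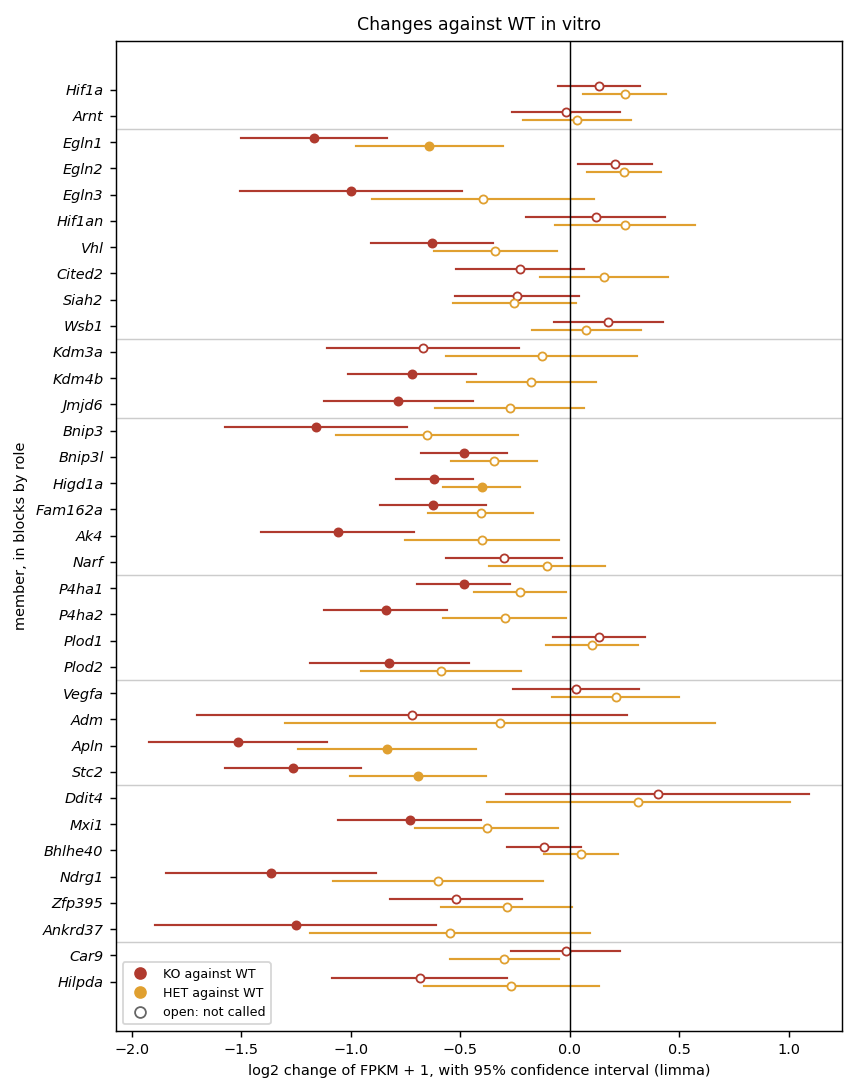
Log2 change of FPKM + 1 (x axis) with its 95% confidence interval for each tested member (y axis, in blocks by role), KO against WT in red and HET against WT in yellow, filled where called. The 18 filled red points all lie left of 0, the 4 filled yellow points are Egln1, Higd1a, Apln and Stc2, and Hif1a, Arnt, Vegfa and Car9 lie close to 0 in KO.

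In heterozygotes, 4 of 35 members fell against WT and none rose. The background was 0.735% of genes lower and 2.94% higher by limma. Those 4 were Egln1 (-0.64, 95% CI -0.98 to -0.31, adjusted p = 0.0425), Higd1a (-0.40, -0.58 to -0.23, adjusted p = 0.0209), Apln (-0.84, -1.24 to -0.43, adjusted p = 0.0322) and Stc2 (-0.69, -1.004 to -0.38, adjusted p = 0.0231), which were also called in KO against the same WT libraries. The members' median log2 change was -0.29, beside 0.04 for all genes, and ran from -0.36 to -0.17 when a library was left out, nearest to 0 without HET 1. None of the 4 held in every alternative: without HET 1, or without HET 3, no member was called, without WT 2 or HET 2 only Higd1a was, and without WT 3 only Higd1a and Stc2. The Egln1 call was also lost without WT 1, KO 1 or KO 3 (adjusted p of 0.0629, 0.0534 and 0.0599) and that of Apln without WT 1 (0.0543). With no filter on low values only Higd1a stayed called, and rescaling to TPM ended the calls of Egln1 and Apln (0.0594 and 0.0551). Over all genes, 14 were lower without HET 1 and 14 without HET 3, against 80 with all libraries. Ddit4 was called higher in HET without WT 1 (adjusted p = 0.00617).

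Between KO and HET no member was called, with a background of 1.39% lower and 0.598% higher by limma. An unadjusted p under 0.05 by limma was found for 19 of 35 members and for 1437 of all 10877 genes. The median log2 change was -0.26, beside -0.00 for all genes. The smallest adjusted p were those of P4ha2 (-0.54, adjusted p = 0.0564), Ak4 (-0.66, adjusted p = 0.0615), Kdm4b (-0.55, adjusted p = 0.0656) and Stc2 (-0.57, adjusted p = 0.0673). Leaving out HET 1, KO 2 or WT 1 raised the count to 5 in each case, and leaving out WT 3 raised it to 2 (P4ha2 and Kdm4b), all lower in KO. Mean FPKM in HET lay between those of WT and KO for all 18 members called in KO against WT. These members were picked for KO lying below WT, which leaves room between them, and the share over all genes was not counted.

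Libraries of a genotype differed over many members at once. The median of the 35 members, as log2(FPKM + 1) minus the WT mean, was 0.19, -0.10 and -0.10 in WT 1 to 3, -0.50, -0.21 and -0.19 in HET 1 to 3 and -0.65, -0.41 and -0.66 in KO 1 to 3, while the median of all genes stayed within -0.03 and 0.05. HET 1 was the lowest HET library for 31 of 35 members (39.6% of all tested genes), KO 2 the highest KO library for 23 of 35 (36.7%) and WT 1 the highest WT library for 26 of 35 (46.1%). KO 2 also differed in Elane and Mpo, which encode proteins of primary myeloid granules and were picked after their values were seen. Elane was at 895, 2062 and 869.6 FPKM in KO 1 to 3 and Mpo at 1224, 2074 and 1186, against 1460 to 1638 and 1646 to 1729 in WT. Summed neutrophil granule markers (12 genes) ran from 3788 to 5099 FPKM in WT, 5318 to 7672 in HET and 3644 to 6536 in KO, and monocyte and macrophage markers from 66.5 to 81.1, 120 to 138 and 100.3 to 104. No defining marker was at 0 throughout in either list, though 4 of 11 macrophage genes and 1 of 12 granule genes were under 1 FPKM in every library. In KO against WT none of 11 tested granule genes and 1 of 7 tested macrophage genes (higher) were called by limma, and in HET against WT 4 of 11 and 4 of 7, all higher. Stem and progenitor markers (8 genes, 1 of them under 1 FPKM in every library) summed to 330.4 to 347 FPKM in WT, 339.6 to 377 in HET and 349.9 to 391 in KO, and 2 of 7 tested were called higher in KO against WT (0 without KO 1 or KO 3) and 3 of 7 in KO against HET (1 without KO 1, KO 2 or KO 3). Erythroid markers (10 genes) summed to 425 to 529 FPKM in WT, 381 to 454 in HET and 373 to 522 in KO. Of 8 tested, 1 was called lower in KO against WT and 2 in HET against WT. Megakaryocyte markers summed to 201 to 250 FPKM in KO and 214 to 263 in WT, with 1 of 4 tested called lower in KO. Lymphoid markers summed to 218 to 249 and 197 to 232, with 0 of 2 called. The part of these markers in the members' changes was not tested. In bulk RNA a smaller share of cells with the transcripts and less RNA in each cell cannot be told apart.

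**Figure D4:**
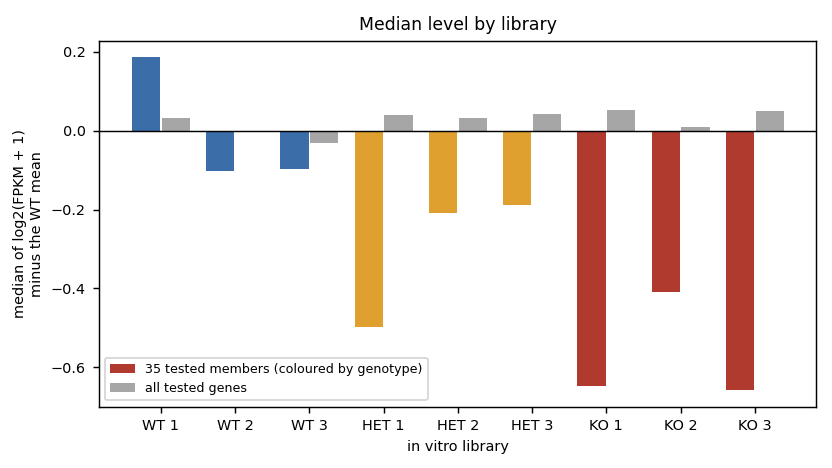
Median over the 35 tested members (coloured by genotype) and over all 10877 tested genes (grey) of log2(FPKM + 1) minus the WT mean, for each in vitro library. HET 1 at -0.50 lies nearer to the KO libraries than to HET 2 and HET 3, and KO 2 at -0.41 lies nearer to 0 than KO 1 and KO 3, while the grey bars stay near 0.

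Glycolytic HIF targets were called lower in KO cells for 12 of the 23 tested, and further hypoxia genes for 4 of 15, against 1.63% of all genes. None of either list was called higher with all libraries, and 1 glycolytic gene was without WT 1. Of the 24 glycolytic genes listed, 20 of 23 tested had a negative log2 change (median -0.37), and Pfkfb3, Pfkfb4 and Aldoa, all uncalled, were at 0.28, 0.10 and 0.08. The 12 calls became 6 without WT 2, 5 without KO 1, 5 without KO 3 and 6 with no filter on low values. Their smallest p belonged to 3 membrane carriers: the glucose transporters Slc2a3 (-1.22, adjusted p = 0.00103 by limma) and Slc2a1 (-1.31, adjusted p = 0.00346) and the lactate exporter Slc16a3 (-1.11, adjusted p = 0.00172). Slc2a1 was at 91.4, 69.8 and 77.5 FPKM in WT, 53.3, 71.8 and 75.3 in HET and 25.7, 42.0 and 28.2 in KO. The further hypoxia list held 28 genes, and 11 of the 15 tested had a negative change (median -0.26). The 4 that fell became 1 without KO 1, without KO 3 or with no filter, and were led by Ero1a, an oxidase of protein folding (-0.89, adjusted p = 0.00641), Hmox1, heme oxygenase (-0.62, adjusted p = 0.0153) and the corepressor gene Rcor2 (-1.14, adjusted p = 0.0169).

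In HET against WT none of 23 glycolytic genes fell and 1 rose (Pfkfb4, 0.42, adjusted p = 0.041 by limma), with a median of -0.06. Over all genes 0.735% were called lower and 2.94% higher. No glycolytic gene was called there when any library other than KO 2 was left out. In KO against HET 8 of 23 fell, against 1.39% of all genes (median -0.32, beside -0.26 for the members). Slc2a3 (-1.09), Slc16a3 (-1.03) and Slc2a1 (-1.06) were again at the smallest p. That count was 2 without HET 2 or HET 3, 3 without KO 3, 4 without KO 1 and 5 without WT 2. Whether the glycolytic genes and the members differ was not tested.

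In the sorted bone marrow set no member was called between genotypes, and the intervals were far wider than in vitro. Of the 30 members in that table, 24 passed the filter and none was called in KO against WT, where 0% of 7246 genes were called by limma (0 genes, 370 at an unadjusted p under 0.05, of which 0 were members). None was called in HET against WT (background 0.262%) or in KO against HET (0.166%). The 95% confidence intervals for KO against WT were 1.57 to 10.2 log2 units wide, with a median width of 6.25, against a median of 0.588 in vitro. The members' median log2 change for KO against WT was -0.12, beside -0.18 for all genes, and it had no stable sign: it ran from -0.60 without WT 3 to 0.37 without KO 1, and was 0.32 with a filter at 5 FPKM.

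Many values were at 0. In each of HET 1 and HET 3, 18 of 30 members were listed at 0, against 5 to 10 in WT and 5 to 12 in KO. Estimated depth was 3.94 and 11.6 M fragments in HET 1 and HET 3, 22.0 to 31.1 in WT and 16.2 to 35.4 in KO, and 3633 and 5209 genes were above 0 in HET, 8194 to 8526 in WT and 6560 to 8519 in KO. The summed neutrophil granule markers were 4822 to 54217 FPKM in WT, near 130224 and 131056 in HET and 135261 to 211087 in KO. Of 11 granule genes tested there, 0 were called in any comparison of genotypes by limma. The most abundant gene of a library, of any kind, held 2.57 to 5.16% of its FPKM in WT, 13.1 to 13.6% in HET and 12.6 to 19.0% in KO. The part of depth and of these markers in the members' values was not tested.

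Only 5 members were above 5 FPKM in all 8 marrow libraries: Cited2, Higd1a, Bnip3l, Jmjd6 and Wsb1. Cited2 was at 302, 369 and 430.5 FPKM in WT, 284 and 391 in HET and 519, 522 and 572 in KO. All KO libraries lay above WT, with a log2 change of 0.56 (95% CI -0.22 to 1.35, adjusted p = 0.995 by limma). Higd1a was at 36.7, 35.5 and 87.5 FPKM in WT, 46.6 and 35.4 in HET and 34.7, 69.0 and 94.0 in KO, so the genotypes overlapped. Bnip3l (14.4 to 147), Jmjd6 (20.3 to 112) and Wsb1 (5.04 to 111) had overlapping groups as well.

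Several members that were high in vitro spread widely between marrow libraries. Bnip3 was at 47.5, 0.022 and 48.0 FPKM in WT, listed at 0 in HET 1 and HET 3, and at 57.8, 71.3 and 45.8 in KO. Fam162a ran from 0.0675 to 295 FPKM within WT alone, and was at 278 and 0 in HET and 159, 209.7 and 249 in KO. Hif1a was at 7.82, 27.9 and 21.8 FPKM in WT, listed at 0 throughout HET, and at 9.96, 16.3 and 0.011 in KO. Egln1, at 10.7, 0 and 1.09 FPKM in WT and 0, 0 and 2.80 in KO, and Egln3, at 17.4, 0 and 25.4 in WT and 0.02, 7.94 and 0.0091 in KO, also ranged from near 0 upward within a genotype. Vhl, Kdm4b, P4ha1, Plod1, Stc1 and Zfp395 failed the filter, and Epas1, Ak4, P4ha2, Plod2, Adm, Apln and Stc2 were not analysed there, which leaves 4 of the 6 members called under every alternative in vitro (Ak4, P4ha2, Apln, Stc2) with no marrow value here.

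**Figure D5:**
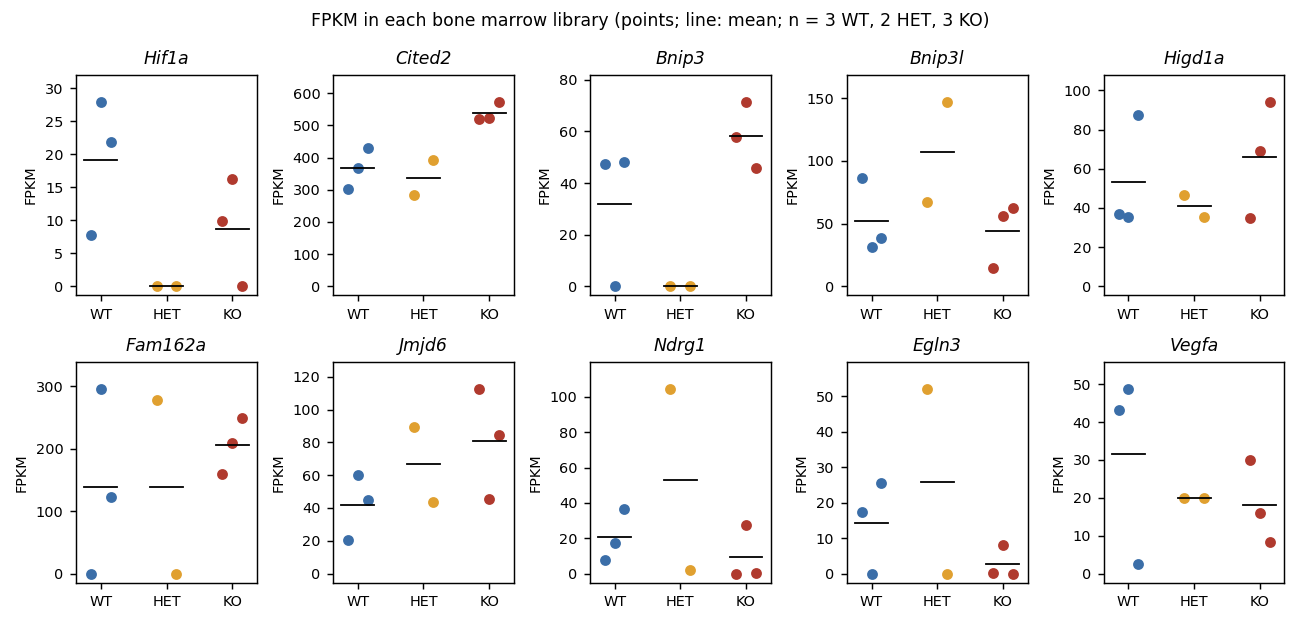
FPKM (y axis) of 10 members in each bone marrow library (points) with the mean (line) for 3 WT, 2 HET and 3 KO libraries. Cited2 is at 284 FPKM or more in every library, while Fam162a in WT and Egln3 in HET spread from near 0 to their highest level. Bnip3 in WT and Hif1a in KO also spread upward from near 0, but their highest values lie in another genotype.

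A limma fit to the 6915 genes kept in both tables asked whether the KO change differed between the sets. None of 24 members was called, with a background of 0.738%, and 3 had an unadjusted p under 0.05, against 543 of all 6915 genes. This fit used the same spread for both tables, so its intervals may be too narrow where marrow values spread more. With a variance for each set, 0 of 24 members had an unadjusted p under 0.05 by limma (323 of 6915 genes). After rescaling to TPM the member count was also 0. For Bnip3 the in vitro change minus the marrow change was -3.28 (95% CI -6.39 to -0.16, adjusted p = 0.58), for Jmjd6 -1.76 (-3.34 to -0.18, adjusted p = 0.518) and for Cited2 -0.79 (-1.49 to -0.09, adjusted p = 0.508). For Egln1 it was -0.27 with an interval of -2.71 to 2.16, wide enough to hold both the whole in vitro fall and a change of the opposite sign. For 21 of the 24 members the 95% interval of the difference held 0.

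Genomic positions in GRCm38.p6 are given for some of the members called lower in KO cells in vitro. They are protein-coding loci on separate chromosomes or far apart: Egln1 at chr8:124908587-124949254, Egln3 at chr12:54178981-54203874, Bnip3 at chr7:138890836-138909506, Higd1a at chr9:121848557-121857796, Ak4 at chr4:101416478-101467771, P4ha2 at chr11:54100924-54131668, Stc2 at chr11:31359441-31370061, Apln at chrX:48025146-48034853 and Ndrg1 at chr15:66929318-66969641.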

How the data were processed

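Per the labels' protocols, RNA was taken up in TRIzol and libraries came from a VAHTS Universal kit. The submitters' processing notes give mm10 as the build, while aligner, counter, annotation and strand setting were not found in any source used. The deposited values are named FPKM, and those used here covered 9 libraries of the in vitro set and 8 of bone marrow. No raw counts were used. Since the scaling of the 2 tables may differ, genotypes were set against each other inside a table only. A value of 0 may be a failed estimate. Approximate depths, which entered no test, came from single-exon genes, whose low FPKM step by the worth of 1 fragment (a whole number of steps, within 0.1, fitted 73.1 to 87.5% of low values).

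The test was limma 3.58.1 (R 4.3.3, statmod 1.5.0), two-sided, on log2(FPKM + 1), with trended and robust moderation and a shared fit of all genotypes without a block. A gene entered when 3 or more libraries of its table reached 1 FPKM. Benjamini-Hochberg adjustment covered all such genes, with 0.05 as threshold. The pseudocount makes log2 changes of low genes too small, and the 95% intervals are unadjusted. Scripts were tested on simulated data. Alternatives were a pseudocount of 0.1, other filters and scalings, only the compared groups, a replicate block and leaving out each library. All 37 members are accounted for, and of the other pathway lists at most the 3 genes of smallest p per list and comparison are named. Pfkfb3, Pfkfb4 and Aldoa are named besides, as the tested glycolytic genes without a negative change in KO against WT. Members, lists and alternatives were chosen with earlier results of these data known. Promoters were matched by symbol to RefSeq's GRCm38.p6 table, the assembly mm10 holds, in Python 3.11.15 with pandas 2.3.3.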

Additional observations from a re-analysis of the deposited data

How the results depend on the processing

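No alternative reversed a called change. In KO against WT in vitro the 18 members called became 8 with no filter on low values (18807 genes tested), 14 under the replicate block (Vhl, Jmjd6, Plod2 and Ankrd37 lost, adjusted p of 0.0515 to 0.0601) and 6 to 19 when a library was left out (11 without WT 2, 6 without KO 1, 6 without KO 3), and the other settings gave 14 to 18. The median log2 change of all 35 tested members, -0.63, ran from -0.69 to -0.46 when a library was left out. In HET against WT the 4 members became 1 with no filter, 2 after rescaling to TPM, 0 under the replicate block (adjusted p of 0.0513 to 0.0601 for the 4) and 0 to 6 when a library was left out. In KO against HET the 0 members became 1 with median-ratio size factors, 1 with quantile normalization, 5 with only the compared groups and 0 to 5 when a library was left out. Dropping the filter also put more genes into the adjustment, and leaving out a library also left fewer libraries. What moved the counts was not tested. The bone marrow counts and the difference between the sets stayed at 0 in each alternative. Same-numbered libraries of different genotypes deviated together at correlations of -0.303 to 0.181 in vitro, over 0.1 in 3 of 9 pairs. For differently numbered libraries the range was -0.331 to 0.374, over 0.1 in 8 of 18 pairs. The numbers were therefore not taken to pair libraries. Over all genes, KO against WT gave 148 higher and 177 lower calls, 67 and 85 with no filter, 123 and 225 under quantile normalization, 67 and 109 with only the compared groups, 28 and 43 without KO 1, 26 and 40 without KO 3 and 53 and 85 without WT 2, so the background shares hold for the full set of libraries. Rescaling to TPM moved the median log2 change of all genes in HET against WT from 0.04 to 0.11. The core count in promoters was 25 of 28 and, for ACGTG alone, 19. The estimated depth of the marrow libraries entered no test.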
